A study of Bos taurus with 24 samples.

Results

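The zona pellucida genes ZP2, ZP3 and ZP4 encode the glycoproteins of the coat around the bovine oocyte, and their mRNA was measured by RNA-seq in immature and mature oocytes of cattle in spring and summer. They were chosen by gene symbol, and the deposited table held all 3 of them among 11306 genes, each at 1 locus. On the UMD3.1.1 assembly, as the table gives the positions, ZP2 lies on the minus strand of chromosome 25 (19228385 to 19240186), ZP3 on the plus strand of chromosome 25 (34960637 to 34968379) and ZP4 on the minus strand of chromosome 28 (10664110 to 10671378). All 3 genes passed the filter on low values, which kept 9526 genes.

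The zona pellucida is an extracellular matrix that the growing oocyte secretes around itself, and in cattle it is built from ZP2, ZP3 and ZP4. The proteins share a ZP domain, through which they polymerise into filaments after a furin-type protease and signal peptidase have released them from the oocyte membrane and the secretory pathway. ZP2 is cut by ovastacin, a protease of the cortical granules, after fertilization, which is part of the block to further sperm. ZP3 is the partner without which the filaments do not form, and ZP4 is a further filament protein that mice lack. Transcription falls silent in the fully grown germinal vesicle (GV) oocyte, so that from then to metaphase II (MII) the oocyte lives on stored mRNA, which it translates, polyadenylates, shortens or degrades.

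The oocytes came by ultrasound-guided ovum pick-up from non-lactating, non-pregnant adult crossbred cows of Angus-based Bos taurus stock. The spring groups were collected in May and the summer groups in July. GV oocytes were taken as collected, whereas MII oocytes had been matured in vitro in a medium with follicle-stimulating hormone and fetal bovine serum, so that stage and culture cannot be told apart. All oocytes were stripped of cumulus cells with hyaluronidase and vortexing. Each of the 4 groups (spring GV, summer GV, spring MII and summer MII) held 6 libraries, and the methods give 1 animal and 4 oocytes as the source of each. The methods describe repeated collection from the same cows across the months, with part of the oocytes matured in vitro, so groups can share animals. Which animals recur between groups is not stated in the sources used here, and the main tests treated the pools as independent. The p-values measure the spread between these pools. In such pools, fewer oocytes with a transcript and less of it per oocyte cannot be told apart. Stored mRNA can change its poly(A) tail between the stages, and whether a stage change is one of amount or of tail length was not tested. The values are FPKM, fragments mapped to a gene scaled by its exon length and by the fragments of the library, and their sum is equal in all libraries here, so that a level is a share of the measured mRNA and a change in the total amount of mRNA per oocyte would not be seen.

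Oocyte transcripts were abundant in every group. GDF9, an oocyte growth factor, had mean values of 106, 160, 106 and 124 FPKM in spring GV, summer GV, spring MII and summer MII oocytes, and OOEP, of the subcortical maternal complex, had 382, 500, 667 and 633 FPKM. Transcripts of cumulus and granulosa cells were also present. FSHR and CYP19A1 did not exceed 0.0352 and 0.0687 FPKM in any library, but AMH reached 13.4 FPKM, PTGS2 8.68 FPKM and HAS2 3.99 FPKM in the highest library. The summed value of the 24 cumulus and granulosa marker genes found ranged from 39.0 to 592 FPKM in spring GV, 35.0 to 128 in summer GV, 35.8 to 167 in spring MII and 27.8 to 86.9 in summer MII oocytes. Much of these sums came from STAR, KRT8 and KRT18. In summer MII oocytes, with a median sum of 58.9 FPKM, these genes averaged 21.7, 21.9 and 4.95 FPKM. HAS2 and PTGS2 averaged 2.15 and 3.80 FPKM there, and AMH, INHA, FST and VIM 0.0257, 0.177, 0.116 and 0.121 FPKM. In spring GV oocytes AMH, INHA, FST and VIM were higher and uneven between pools. They averaged 2.34 ± 5.43, 6.64 ± 15.0, 3.41 ± 8.28 and 13.1 ± 30.7 FPKM (SD, n = 6). With spring GV replicate 1 set to 1, most libraries had an estimated depth of 0.536 to 1.05. Summer GV replicates 5 (6.45) and 3 (2.18) were deeper, whereas replicate 6 of spring GV (0.0559), replicate 6 of spring MII (0.149) and replicate 2 of summer GV (0.391) were shallower. The 3 shallowest libraries stood apart, and log2 fold changes of zona genes that move by over 1.5 times without them are given both ways. They also held the highest marker sums of their groups, 592, 167 and 128 FPKM. The next highest sums were 217 FPKM in spring GV, 63.9 in spring MII and 58.1 in summer GV oocytes.

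ZP2 was the zona gene with the clearest pattern. Its mean level was lowest in spring GV oocytes, higher in summer GV oocytes and highest in MII oocytes of either season. Of the differences tested, only the stage change in spring passed adjustment over all genes. In spring GV oocytes the 6 pools held 26.8, 52.0, 31.1, 66.7, 34.6 and 54.9 FPKM (44.4 ± 15.8, SD, n = 6). In spring MII oocytes they held 123, 129, 129, 134, 185 and 118 FPKM (136 ± 24.5, SD, n = 6). Every spring MII pool lay above every spring GV pool, and the lowest MII pool was well clear of the highest GV pool.

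The measured level of ZP2 was thus 3.15-fold higher at MII than at GV in spring. The log2 fold change was 1.65 (SE 0.25, 95% interval 1.12 to 2.19), with an adjusted p of 0.000629 by limma and p = 0.00216 in the exact permutation test (two-sided), the smallest that 6 against 6 libraries allow. A gene was called where its unadjusted p was under 0.05 and its change over 2-fold, and ZP2 was the 1 zona gene called in this comparison, in which 11.8% of all genes tested were called, 340 of them higher and 786 lower in MII oocytes. With quantile normalization that split was 557 higher and 648 lower, and ZP2 remained called and higher. With the filter at a mean of at least 1 FPKM, 1098 of 3665 genes were called, ZP2 among them. Without the 3 shallowest libraries and under each other setting tried, its log2 fold change stayed between 1.42 and 1.79. Over the 9 oocyte marker genes found, the median log2 fold change in the same comparison was 0.77, with 6 above 0, and over the 19 cumulus and granulosa markers that passed the filter it was -0.18, with 4 above 0. Over all genes tested it was -0.03, and the part of such cells in the rise of ZP2 was not tested.

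In summer the ZP2 values were 74.2, 115, 91.9, 59.6, 109 and 67.1 FPKM in GV oocytes (86.2 ± 22.9, SD, n = 6). They were 150, 216, 70.0, 81.5, 103 and 115 FPKM in MII oocytes (122 ± 53.6, SD, n = 6). The 2 stages overlapped here, since MII replicates 3, 4, 5 and 6 lay within the range of the GV pools while MII replicates 1 and 2 exceeded all of them. From GV to MII the log2 fold change was 0.44 (SE 0.28, 95% interval -0.17 to 1.05), and it did not pass the test (adjusted p = 0.254 by limma, exact permutation p = 0.158).

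**Figure D1:**
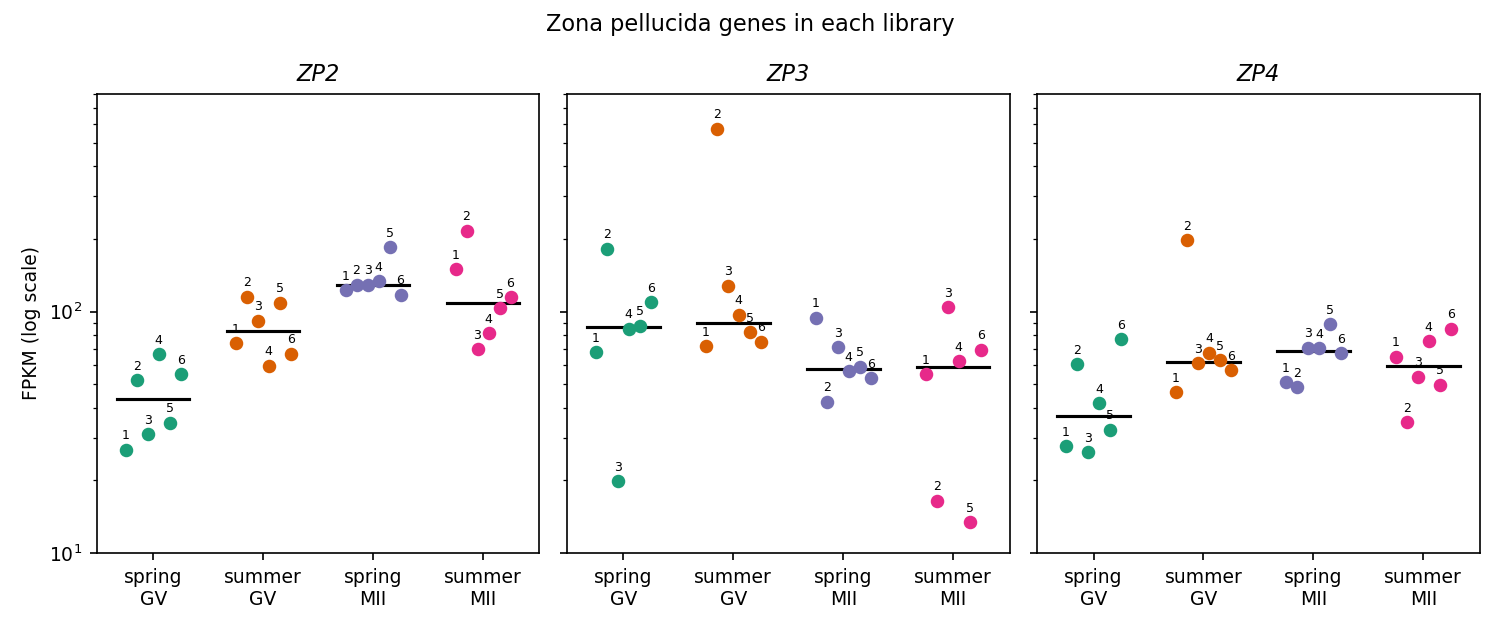
FPKM of ZP2, ZP3 and ZP4 (log scale) in each of the 24 libraries, by group, where a point is 1 pool of oocytes numbered by replicate and a bar is the group median. For ZP2 the spring GV points (26.8 to 66.7) lie below all spring MII points (118 to 185), and for ZP3 summer GV replicate 2 (572) lies far above the other points.

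ZP3 had the highest FPKM of the 3 transcripts in most GV pools, and it was also the most variable. In spring GV oocytes it was measured at 67.9, 182, 19.8, 84.9, 87.3 and 109 FPKM (91.9 ± 53.5, SD, n = 6), and in spring MII oocytes at 94.2, 42.4, 71.1, 56.5, 59.1 and 53.1 FPKM (62.8 ± 18.0, SD, n = 6). All spring MII values lay inside the range of the GV values, which reached from replicate 3 at the low end to replicate 2 at the high end. The log2 fold change was -0.33 (SE 0.42, 95% interval -1.24 to 0.59), which did not pass the test (adjusted p = 0.568 by limma, exact permutation p = 0.498). It depended on single pools, since it was -0.71 without spring GV replicate 3 (adjusted p = 0.0866 by limma, unadjusted p under 0.05), -0.08 without spring GV replicate 2 and -0.19 without the 3 shallowest libraries.

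The low value of ZP3 in spring GV replicate 3 stood beside a high level of cumulus cell transcripts. That library had the highest mean log2(FPKM + 1) over the cumulus and granulosa markers, 1.86, against 0.57 for the lowest spring GV library, and a summed marker value of 217 FPKM. Spring GV replicate 6, the shallowest library (relative depth 0.0559), had the highest summed value, 592 FPKM, a mean log2(FPKM + 1) of 1.43 and 109 FPKM of ZP3. Such a sum can rest on few markers, and KRT18 averaged 66.2 ± 160 FPKM (SD, n = 6) in spring GV oocytes. The part of these cells in the zona values was not tested.

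In summer, ZP3 was lower in most MII pools than in the GV pools, without passing adjustment over all genes. The GV pools held 72.0, 572, 128, 97.1, 82.3 and 75.1 FPKM (171 ± 198, SD, n = 6), where replicate 2 alone was several times higher than the rest. The MII pools held 55.2, 16.5, 104, 62.5, 13.4 and 69.5 FPKM (53.5 ± 34.3, SD, n = 6). In 5 of the 6 MII pools ZP3 was below every GV pool, and replicate 3 was the exception.

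The log2 fold change of ZP3 in summer was -1.50 (SE 0.60, 95% interval -2.81 to -0.19), a 2.82-fold decrease. It passed the call rule (limma p = 0.0285, exact permutation p = 0.0303) but not adjustment over all genes (adjusted p = 0.0783 by limma), and 11.5% of the genes tested were called in this comparison, 210 higher and 882 lower, or 494 higher and 672 lower with quantile normalization. With the filter at a mean of at least 1 FPKM, 1064 of 3665 genes were called. The ZP3 call rested on single libraries, among them summer GV replicate 2, the shallowest of its group. Without it the unadjusted p was over 0.05 (log2 fold change -1.05, adjusted p = 0.110 by limma), and so it was without summer MII replicate 2 (-1.23, adjusted p = 0.159) or replicate 5 (-1.18, adjusted p = 0.163).

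ZP4 varied less between pools than ZP3 and was called in no comparison. Its spring GV values were 27.8, 60.5, 26.2, 41.9, 32.4 and 76.7 FPKM (44.3 ± 20.3, SD, n = 6), and its spring MII values were 51.0, 48.7, 71.0, 70.5, 88.7 and 67.4 FPKM (66.2 ± 14.7, SD, n = 6). The groups overlapped, because GV replicates 2 and 6 lay within the range of the MII pools. The log2 fold change was 0.65 (SE 0.29, 95% interval 0.03 to 1.28), with p = 0.0405 by limma and p = 0.0498 in the exact permutation test, and at 1.57-fold and an adjusted p of 0.112 by limma it was not called. With median-of-ratios scaling it was 0.42 (adjusted p = 0.224 by limma), and without the 3 shallowest libraries 0.82 (adjusted p = 0.0282 by limma).

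In summer the ZP4 values were 46.4, 198, 61.0, 67.5, 62.8 and 57.1 FPKM in GV oocytes (82.1 ± 57.2, SD, n = 6) and 65.2, 34.8, 53.7, 75.6, 49.8 and 85.0 FPKM in MII oocytes (60.7 ± 18.3, SD, n = 6). Apart from GV replicate 2, which was the highest of all 24 libraries for ZP4 as for ZP3, the stages covered much the same range. Its log2 fold change was -0.30 (SE 0.34, 95% interval -1.03 to 0.43), which did not pass the test (adjusted p = 0.532 by limma, exact permutation p = 0.496), and without that library it was -0.01.

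The study collected its oocytes to compare the seasons, and at the GV stage ZP2 was higher in most summer pools, without passing the call rule. Of the values given above, 5 of the 6 summer GV pools exceeded every spring GV pool, and the remaining one, replicate 4 at 59.6 FPKM, lay between the spring pools. In summer the log2 value was higher by 0.98 (SE 0.27, 95% interval 0.39 to 1.56), with p = 0.00337 by limma and p = 0.00433 in the exact permutation test. It did not pass adjustment over all genes (adjusted p = 1.0 by limma), and at 1.97-fold it lay just under the 2-fold limit, which it passed with quantile normalization (1.09) or when any of 6 of the 12 libraries was left out. In this comparison 0.0315% of the genes tested were called, 3 in all, and no gene had an adjusted p under 0.05, while 148 had an unadjusted p under 0.05. No marker gene was called here, but the list medians differed from that of all genes. The median log2 fold change in summer was 0.39 over the 9 oocyte markers, with 8 above 0, and -0.26 over the 19 cumulus and granulosa markers, with 3 above 0, against 0.01 over all genes, and their part in the higher ZP2 value was not tested.

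For ZP4 the corresponding log2 fold change in GV oocytes was 0.80 (SE 0.37, 95% interval -0.01 to 1.60, limma p = 0.0518, exact permutation p = 0.0584). All 6 summer pools were above the spring median of 37.1 FPKM, but the groups overlapped, and the value was 0.51 without summer GV replicate 2. For ZP3 it was 0.66 (SE 0.57, 95% interval -0.57 to 1.88, limma p = 0.270, exact permutation p = 0.387), with medians of 86.1 FPKM in spring and 89.7 FPKM in summer. The ZP3 value was 0.21 without summer GV replicate 2, 0.31 without the 3 shallowest libraries and 0.28 without spring GV replicate 3.

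In MII oocytes the seasons overlapped for all 3 genes. From spring to summer the log2 fold change was -0.24 for ZP2 (95% interval -0.79 to 0.31, limma p = 0.364, exact permutation p = 0.375). It was -0.51 for ZP3 (95% interval -1.53 to 0.51, limma p = 0.296, exact permutation p = 0.375) and -0.15 for ZP4 (95% interval -0.65 to 0.35, limma p = 0.518, exact permutation p = 0.526). None was called, where 0.042% of the genes tested were called, 4 in all, and none had an adjusted p under 0.05 by limma, while 201 had an unadjusted p under 0.05.

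The change from GV to MII was then compared between the seasons. For ZP2 the summer change was smaller than the spring change by 1.21 on the log2 scale (SE 0.37, a difference of -1.21 with a 95% interval of -1.99 to -0.44, limma p = 0.00347, exact permutation p = 0.00586). For ZP4 the difference was -0.95 (SE 0.45, 95% interval -1.88 to -0.03, limma p = 0.0445, exact permutation p = 0.0456), and for ZP3 it was -1.17 (SE 0.76, 95% interval -2.74 to 0.41, limma p = 0.138, exact permutation p = 0.152). ZP2 was called here, as were 0.21% of the genes tested, 20 in all, and ZP4 fell just short of the 2-fold limit. Without summer GV replicate 2 the difference was -0.66 for ZP4, with an unadjusted p over 0.05, and -0.72 for ZP3. The adjusted p was 1.0 by limma for each of the 3 genes, and with median-of-ratios scaling the ZP2 difference was -0.96, under the 2-fold limit. The same difference had a median of -0.58 over the 9 oocyte markers, with 0 above 0, and of 0.23 over the 19 cumulus and granulosa markers, with 14 above 0, against -0.03 over all genes. The 5 comparisons share libraries and are not independent of each other, and the spring GV pools enter the rise of ZP2 with stage, its difference between seasons and this one.

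**Figure D2:**
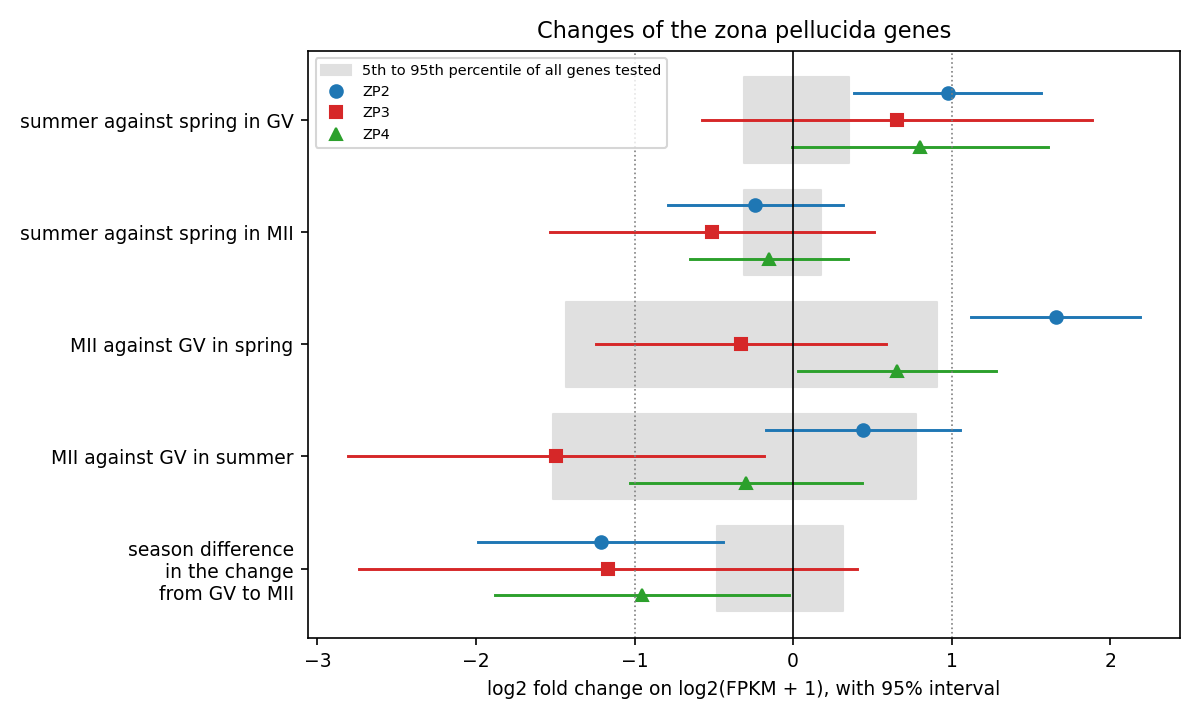
Log2 fold changes of ZP2, ZP3 and ZP4 with 95% intervals in the 4 comparisons of 2 groups and in the season difference of the stage change, on log2(FPKM + 1), with grey boxes for the 5th to 95th percentile of all genes tested and dotted lines at 2-fold. The spring stage change of ZP2 (1.65) lies outside its grey box. So do all 3 genes in the GV season comparison and in the season difference, and ZP3 in the MII season comparison. ZP3 at GV (0.66) lies outside although its limma p was 0.270. The boxes cover all 9526 genes tested, among them low genes, whose fold changes are understated on this scale. The intervals of ZP3 are the widest.

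In the order of group means, ZP2 ran from spring GV (44.4 FPKM) through summer GV (86.2) and summer MII (122) to spring MII oocytes (136). Only the first step of that order passed an unadjusted test, and both summer MII neighbours overlapped it. ZP3 ran in the other sense, from summer MII (53.5) and spring MII (62.8) to spring GV (91.9) and summer GV oocytes (171), with no step between neighbours larger than the spread. The last of these means was raised by replicate 2, and the medians of the GV groups were close (86.1 and 89.7 FPKM). ZP4 ran from spring GV (44.3) through summer MII (60.7) and spring MII (66.2) to summer GV oocytes (82.1), whose mean was raised by replicate 2, and its first and last steps, which cross both stage and season, were not tested.

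FPKM is scaled by exon length, and the measured levels of the 3 genes are set side by side within a library as a description. Whether other properties of the transcripts, such as poly(A) tail length, affect these ratios was not tested. In spring GV oocytes the FPKM of ZP3 exceeded that of ZP2 in 5 of 6 pools, with a ratio of ZP3 to ZP2 between 0.636 and 3.51 (median 2.25). In spring MII oocytes ZP2 exceeded ZP3 in every pool, and the ratio ran from 0.320 to 0.769 (median 0.437). The ratio in summer was 0.756 to 4.97 (median 1.26) at GV and 0.0762 to 1.49 (median 0.488) at MII, where it was over 1 in 4 and in 1 of the 6 pools. The GV and MII ratios overlapped slightly in spring and widely in summer.

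ZP4 and ZP2 were nearly equal in spring GV oocytes, with a median ratio of ZP4 to ZP2 of 0.986 (0.628 to 1.4). In spring MII oocytes the ratio was 0.377 to 0.574 (median 0.504), below all spring GV pools. In summer it went from a median of 0.758 at GV (0.577 to 1.72) to 0.613 at MII (0.161 to 0.927). ZP3 was above ZP4 in 5 of 6 spring GV pools and in 6 of 6 summer GV pools, with median ratios of 2.24 and 1.5, but in 2 and 1 of 6 MII pools, with medians of 0.837 and 0.822. ZP2 accordingly had the highest FPKM of the zona genes in 1 of 6 spring GV, 2 of 6 summer GV, 6 of 6 spring MII and 5 of 6 summer MII pools.

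**Figure D3:**
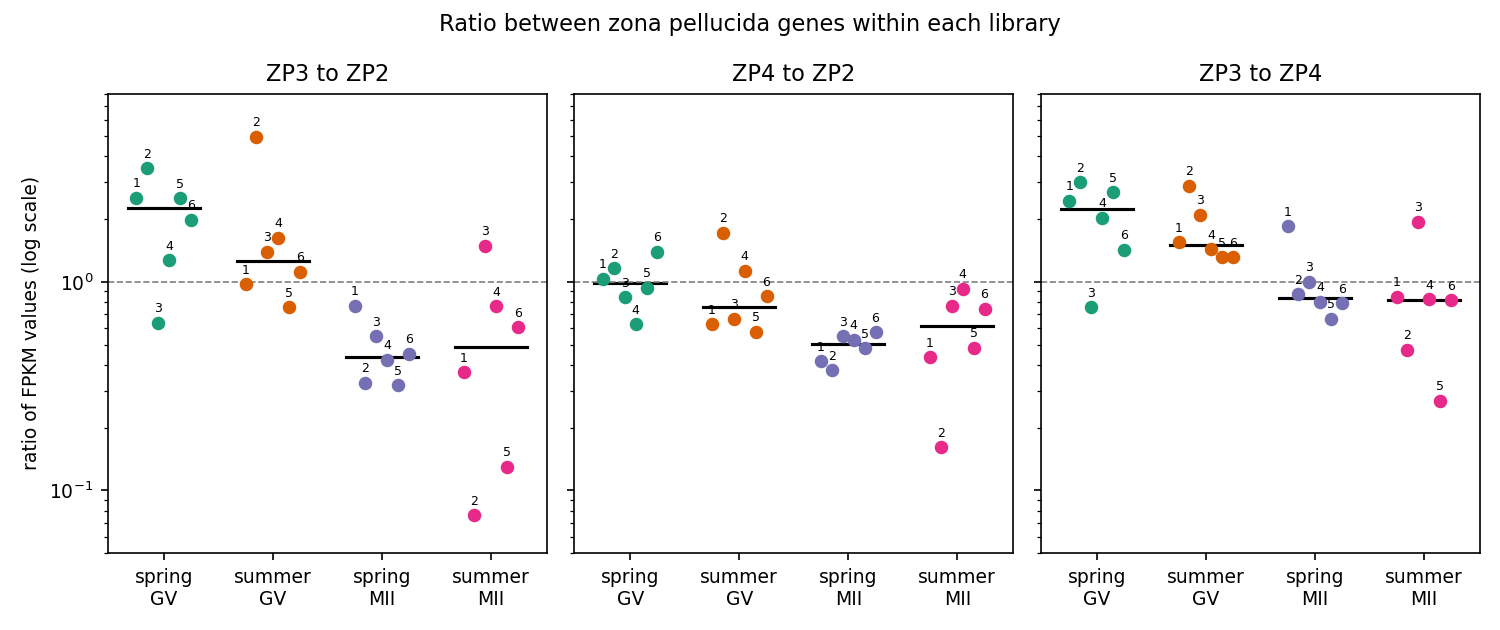
Ratio of FPKM values (log scale) of ZP3 to ZP2, ZP4 to ZP2 and ZP3 to ZP4 within each library, by group, with replicate numbers on the points, the group median as a bar and a dashed line where both genes are equal. Both ratios to ZP2 lie under the line in all 6 spring MII pools, with medians of 0.437 and 0.504.

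The summed value of the 3 genes had a median of 174 FPKM in spring GV, 239 in summer GV, 264 in spring MII and 248 in summer MII oocytes, and its ranges overlapped among all groups. All 3 were among the abundant transcripts of every library. ZP2 ranked from 52 to 424 among the 11306 genes listed, ZP3 from 15 to 577 and ZP4 from 63 to 473.

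The next transcripts in rank in spring GV oocytes give a scale for these changes, and no difference from them was tested. PPAN, a ribosome biogenesis gene, and ZP2 had nearly the same mean there (44.5 and 44.4 FPKM), but in spring MII oocytes PPAN averaged 7.34 FPKM and ZP2 136 FPKM. Next to ZP4 was HSP90AB1, a cytosolic chaperone, with 44.1 ± 65.6 FPKM in spring GV and 76.0 ± 53.6 FPKM in spring MII oocytes, a wide spread between pools. ZP3 (91.9 ± 53.5 FPKM) stood between LOC788736 (92.5 ± 44.7 FPKM) and CBR3, a carbonyl reductase (90.3 ± 33.2 FPKM). In spring MII oocytes LOC788736 and CBR3 averaged 163 ± 90.8 and 7.87 ± 2.07 FPKM, against 62.8 ± 18.0 FPKM for ZP3.

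The spread between pools of the same group differed among the 3 genes. On log2(FPKM + 1), the pooled SD within groups was 0.45 for ZP2, 0.55 for ZP4 and 0.99 for ZP3, and the median was 0.58 over the 969 genes with a mean of at least 10 FPKM. ZP3 thus varied more than 87.3% of these genes, and ZP2 more than 28.3% of them. From the lowest to the highest of the 24 libraries, ZP3 spanned 42.7-fold, ZP2 8.07-fold and ZP4 7.54-fold. The highest ZP3 and ZP4 values, 572 and 198 FPKM, were those of summer GV replicate 2, among the 3 shallowest libraries. The next highest were 182 FPKM for ZP3 and 88.7 FPKM for ZP4.

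ZP3 and ZP4 deviated from their group means in the same libraries, and ZP2 followed them less. After group means were removed, Pearson's r over the 24 libraries was 0.75 for ZP3 and ZP4, 0.33 for ZP2 and ZP4 and 0.09 for ZP2 and ZP3. Without summer GV replicate 2, these values were 0.61, 0.22 and -0.06, and without the 3 shallowest libraries 0.64, 0.14 and -0.10. Over all 24 libraries, before group means were removed, r was 0.61, 0.49 and -0.14. The pools share a common total and differ in depth, and these values are a description without a test. In summer MII replicate 2, ZP2 was at its highest (216 FPKM) where ZP3 (16.5 FPKM) and ZP4 (34.8 FPKM) were low.

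**Figure D4:**
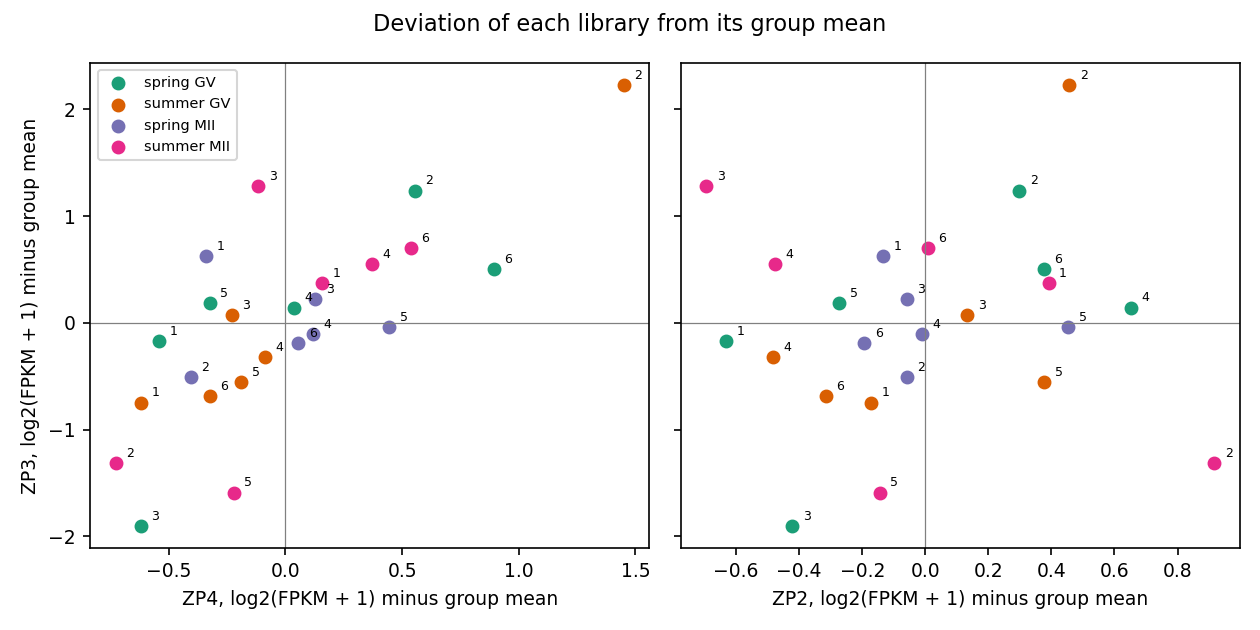
Deviation of each library from its group mean on log2(FPKM + 1), for ZP3 against ZP4 (left) and against ZP2 (right), where a point is 1 of the 24 libraries, coloured by group and numbered by replicate. The points rise together on the left (r = 0.75) and show little relation on the right (r = 0.09), with summer GV replicate 2 at the upper end of both panels for ZP3.

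Among the 3665 genes with a mean of at least 1 FPKM, those whose values over the 24 libraries were most like ZP2 were DNAJC9, a histone co-chaperone (r = 0.94), RBPMS, an RNA-binding protein (r = 0.89), and KIF23, a kinesin of cytokinesis (r = 0.88). With group means removed they were DNAJC9 (0.86), NIFK, a nucleolar protein (0.82), and RAE1, an mRNA export factor (0.81). DNAJC9 had mean values of 2.64, 4.50, 7.29 and 5.55 FPKM in spring GV, summer GV, spring MII and summer MII oocytes, the same order of groups as ZP2.

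The genes most like ZP3 were UROD, an enzyme of heme synthesis (r = 0.92), WDR83 (0.87) and TUBB2B, a beta-tubulin (0.87), and with group means removed UROD (0.93), TALDO1, of the pentose phosphate pathway (0.87), and WDR83 (0.85). For ZP4 they were TOE1, a deadenylase (0.85), FARSB, of phenylalanyl-tRNA synthetase (0.84), and DKC1, a pseudouridine synthase (0.81), and with group means removed DKC1 (0.88), DDX56, an RNA helicase (0.88), and AP5S1 (0.87). The named genes differ among the 3 zona genes, and each leads a ranking of all 3665 genes over 24 points.

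Genes that act with the zona proteins were taken from lists. Of the transcription factors and germline regulators of the zona genes, TCF3, a partner of FIGLA, was the 1 gene of 10 listed that was found and passed the filter. It had means of 1.0 FPKM in spring GV and 0.365 FPKM in spring MII oocytes, and was called in no comparison. The median log2 fold change over all genes tested was -0.03 from GV to MII in spring and -0.02 in summer, and the list medians below are on the same scale. The share of all genes called in these comparisons, 11.8% in spring and 11.5% in summer, is repeated beside the counts.

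Of 23 genes of secretion, signal cleavage and furin-type processing, 2 were called higher and none lower in spring MII oocytes (list median 0.09), and 1 higher and none lower in summer (0.06), shares below the 11.8% and 11.5% of all genes called. HSP90B1, a chaperone of the endoplasmic reticulum, averaged 7.78 FPKM in GV and 20.7 FPKM in MII oocytes in spring (log2 fold change 1.63, adjusted p = 0.0225 by limma). In summer it averaged 8.27 and 19.0 FPKM (1.14, adjusted p = 0.0581 by limma). CANX, the lectin chaperone calnexin, was called in spring with 2.53 and 6.43 FPKM (1.03, adjusted p = 0.126 by limma).

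Of 9 genes of the egg surface and of contact through the zona, 1 was called higher and 1 lower in spring (list median -0.00), and 1 higher and 2 lower in summer (0.10), where 11.8% and 11.5% of all genes were called. OOSP1, an oocyte-secreted protein, rose from 289 to 687 FPKM in spring (log2 fold change 1.37, adjusted p = 0.00625 by limma) and from 335 to 973 FPKM in summer (1.52, adjusted p = 9.38e-05 by limma). GJA4, the gap junction protein between the oocyte and its cumulus cells, was called lower in MII oocytes in both seasons, with 47.5 and 14.3 FPKM in spring (-1.36, adjusted p = 0.118 by limma) and 43.4 and 10.6 FPKM in summer (-1.67, adjusted p = 0.0723 by limma). CD81, a tetraspanin of the egg membrane, fell in summer from 13.4 to 5.09 FPKM (-1.25, adjusted p = 0.00238 by limma).

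Of 12 entries for cortical granules and zona hardening, 2 were called higher and 1 lower in spring (list median -0.00), and none higher and 1 lower in summer (-0.02), beside 11.8% and 11.5% of all genes. VAMP3, a protein of vesicle fusion, rose in spring from 7.75 to 17.3 FPKM (log2 fold change 1.11, adjusted p = 0.0199 by limma). RAB27A, which the table lists at 2 loci, was called at 1 of them, where all 6 spring GV pools were at the lowest value of the table, 0.01, and the spring MII pools averaged 22.9 ± 25.0 FPKM (SD, n = 6). NLRP5, a maternal-effect gene of the egg cortex, fell from 6.62 to 3.1 FPKM in spring (-1.00004, barely past the 2-fold limit, adjusted p = 0.0475 by limma). In summer it fell from 11.1 to 2.66 FPKM (-1.70, adjusted p = 0.00816 by limma).

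Of 13 genes that control stored mRNA, 2 were called higher and 1 lower in spring (list median 0.26), and 1 higher and 1 lower in summer (0.22), beside 11.8% and 11.5% of all genes. CNOT7, a deadenylase subunit, rose from 7.80 to 21.6 FPKM in spring (log2 fold change 1.42, adjusted p = 0.0262 by limma) and from 8.97 to 21.8 FPKM in summer (1.30, adjusted p = 0.0246 by limma). ZAR1, an RNA-binding protein of stored mRNA, fell from 169 to 28.8 FPKM in spring (-2.32, adjusted p = 0.00129 by limma) and from 176 to 24.6 FPKM in summer (-2.94, adjusted p = 0.000194 by limma), while its relative ZAR1L rose in spring from 27.1 to 60.8 FPKM (1.21, adjusted p = 0.0151 by limma).

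Of the 9 oocyte markers found, 2 were called higher and 2 lower in spring and 1 higher and 2 lower in summer, with list medians of 0.77 and 0.37, where 11.8% and 11.5% of all genes were called. BMP15, a growth factor that the oocyte secretes, rose in spring (10.8 to 26.8 FPKM, log2 fold change 1.35, adjusted p = 0.0354 by limma), and DPPA3, a maternal factor, rose in spring (219 to 507 FPKM, 1.33, adjusted p = 0.00927 by limma) and in summer (249 to 566 FPKM, 1.19, adjusted p = 0.000813 by limma). ZAR1 and NLRP5 were the 2 called lower in each season. Of the 19 cumulus and granulosa markers over the filter, HAS2, which makes the hyaluronan of the expanding cumulus, was the 1 gene called in either season (11.8% and 11.5% of all genes were), with 0.297 FPKM in GV and 1.82 FPKM in MII oocytes in spring (adjusted p = 0.00277 by limma) and 0.486 and 2.15 FPKM in summer (adjusted p = 0.00557 by limma). None of the 2 blood markers over the filter was called. In summer against spring, at either stage, and in the season difference of the stage change, no gene of these lists was called.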

How the data were processed

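Libraries were made from the messenger RNA of oocyte pools by Smart-seq2 v4 amplification and sequenced in pairs on a NextSeq 500. Per the labels and the methods, the authors trimmed and aligned the reads (STAR 2.5.3a, UMD3.1.1). The deposited unit is FPKM. Its sum is equal in all libraries and its lowest value is 0.01, which the methods do not explain. The annotation and strand setting are not given in the sources used here. Read counts per gene are unknown, and relative depth was inferred from the spacing of low values. In simulated libraries built from whole read counts, as the method assumes, 10 of 10 were solved. Their depths were set close to those estimated here, and they do not test the unexplained scaling of the deposited values.

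Genes over 0.1 FPKM in at least 1 library (9526) were compared as log2(FPKM + 1) between pairs of groups with limma 3.58.1 in R 4.3.3, with a mean-variance trend. The Partek tool of the authors was not run. The call rule follows the methods, and Benjamini-Hochberg adjusted p over all genes stands beside it. Fold changes on this scale understate those of low genes. Exact permutation tests were two-sided, over 924 assignments of libraries, or 853776 for the season difference in the stage change. The 12 tests of zona genes between pairs of groups were not adjusted among themselves. In a test on simulated data for MII against GV in summer (9526 genes), calls were made for 89 of 100 genes with a log2 change of 1.5, 97 of 100 with one of 3, and 25 of 9326 with none.

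The zona genes and the lists were chosen with earlier results of these data known. Named genes are the zona genes, up to 3 called genes of smallest p per list and season in the stage comparisons, the 3 genes most correlated with each zona gene, and its neighbours by mean FPKM in spring GV oocytes. List genes absent from the table were not analysed here.

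Alternatives changed the pseudocount (0.1), the filter (none, or a mean of 1 FPKM or more), the scaling (quantile or median-of-ratios), the moderation (robust), the threshold (adjusted p) or the libraries (all groups fitted together, the replicate number as a block, each library left out, or the 3 shallowest left out, which were also those with the lowest mapping rates). For ratios, 0.01 was also subtracted from each value, which moved none beyond the spread.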

Additional observations from a re-analysis of the deposited data

Results flagged for a closer look

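In 3 of the 12 groups of 6 zona values, the highest pool stood apart from the others by Dixon's test at 95%, where chance gives about 1 in 20. These were ZP2 in spring MII replicate 5 (185 FPKM), ZP3 in summer GV replicate 2 (572 FPKM) and ZP4 in the same library (198 FPKM). Summer GV replicate 2 had a relative depth of 0.391 and a summed cumulus and granulosa marker value of 128 FPKM, the highest of its group, and the part of either in the 2 values was not tested. Spring MII replicate 5 had a relative depth of 0.801.

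The change from GV to MII differed between seasons by -1.21 on the log2 scale for ZP2 (limma p = 0.00347, exact permutation p = 0.00586) and by -0.95 for ZP4 (limma p = 0.0445, exact permutation p = 0.0456), and neither passed adjustment over all genes.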

How the results depend on the processing

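No zona gene reversed its direction under any alternative. ZP2 in summer against spring GV oocytes was called with quantile normalization (1.09) and ranged from 0.85 to 1.11 with 1 library left out, called in 6 of 12 such fits. ZP3 from GV to MII in summer lost its call without the 3 shallowest libraries (-1.05), with the replicate block (-1.50) and by adjusted p (-1.50), and ranged from -1.75 to -1.05 with 1 library left out. The season difference in the stage change of ZP2 lost its call with median-of-ratios scaling (-0.96), where the smaller size put it under 2-fold, and by adjusted p (-1.21), and that of ZP4 ranged from -1.13 to -0.66 with 1 library left out and was called in 8 of 24 such fits. The replicate block changed no other call of a zona gene. Replicate numbers were not taken as pairs, since no source says what they mark and not every same-numbered pair of deviations correlated over 0.1 (-0.44 to 0.76). The median r was -0.12 to 0.55 per pair of groups, highest for summer MII with spring MII, where 4 of 6 libraries were closest to their own number (0 to 3 in the other pairs of groups).

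A pseudocount of 0.1 raised the calls over all genes from 3, 4, 1126, 1092 and 20 (summer against spring in GV and MII, MII against GV in spring and summer, and the season difference) to 37, 23, 2628, 2521 and 96, and moved the median of all genes to -0.12 and -0.13 in the stage comparisons. The season counts were 6 (GV) with quantile normalization, 6, 0 and 11 (GV, MII and the difference) with median-of-ratios scaling, 14 (GV) with all 4 groups in one fit, 9 (MII) without the 3 shallowest libraries and 0 by adjusted p. With 1 library left out they were 3 to 13, 2 to 16 and 15 to 41. Low depth in 3 libraries and pools of 4 oocytes limit what these values can show.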

Other observations

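Other genes with a ZP domain, or named for binding the zona, were measured beside the zona genes. TECTB, a ZP-domain protein of the tectorial membrane in the inner ear, rose in oocytes from 3.53 ± 1.38 FPKM at GV to 10.7 ± 2.86 at MII in spring (SD, n = 6, log2 fold change 1.39, adjusted p = 0.00177 by limma). In summer it rose from 3.88 ± 1.08 to 12 ± 2.95 FPKM (1.41, adjusted p = 0.000288 by limma). It was the 1 called gene among the 3 of this list that passed the filter, in either season, where 11.8% (spring) and 11.5% (summer) of all genes were called. Its log2 fold change between seasons was 0.13 at GV and 0.15 at MII, neither called.

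ZPBP and ZPBP2, acrosomal proteins of sperm that bind the zona, were low in all groups. ZPBP did not exceed 0.0972 FPKM in any library. ZPBP2 averaged 0.118 and 0.302 FPKM in spring GV and MII oocytes and 0.162 and 0.280 FPKM in summer, and was under the 2-fold limit in both (log2 fold change 0.22, adjusted p = 0.0262 by limma in spring, and 0.14, adjusted p = 0.110, in summer).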
